A study of Mus musculus with 42 samples.

Results

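Cst7, Baiap2l2, Pld3, Myo1e, Haghl, Ctnnd2, Ntm and Zfp462 are 8 of the 19151 genes measured in microglia of APP/PS1 mice, which develop amyloid deposits with age, and of wild-type (WT) mice. They were selected because their APP/PS1 minus WT difference was large in these data at 1 age or another, so that difference is described here and not tested. All 8 passed the filter on low values, a mean of at least 7 on the deposited log2 scale in 1 group or more, as did 14910 genes in all. The selection names them as early and strong responders to amyloid. That name describes some of them and not others, and since the same differences chose the genes it is no finding. In both Ki67 states, every APP/PS1 library lay above every WT library from 4 months for Cst7 and Baiap2l2 and from 6 months for Myo1e. Pld3 separated at 6 months in Ki67+ and at 12 months in Ki67- microglia. Haghl separated upward only in Ki67- microglia at 12 months, and Zfp462 only in Ki67+ microglia at 4 months. At 12 months Ctnnd2 lay lower in APP/PS1 mice without overlap in both Ki67 states, and Ntm in Ki67- microglia only. All are therefore called the 8 selected genes below.

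Microglia are the resident macrophages of the brain. They gather at amyloid deposits, take up debris into lysosomes and there switch on a set of lysosomal, lipid-handling and surface genes known as the disease-associated microglia (DAM) program, while they divide locally to expand their number. Ki67 is a nuclear protein of cycling cells that is absent from resting ones. Cst7 encodes cystatin F, an inhibitor of lysosomal cysteine proteases, and Pld3 a lysosomal member of the phospholipase D family that degrades single-stranded nucleic acids. Baiap2l2 encodes a membrane-bending protein of the IMD/I-BAR family and Myo1e a class I myosin that links membranes to actin. Haghl is a relative of the glyoxalase gene Hagh, Ctnnd2 encodes delta-catenin, Ntm the cell adhesion protein neurotrimin of the IgLON family, and Zfp462 a nuclear zinc finger protein.

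The study sequenced RNA of small pools of fixed CD11b+ CD45+ cells sorted into Ki67+ and Ki67- microglia from brains of male mice on the C57BL/6 background. APP/PS1 mice carry transgenes for mutant human amyloid precursor protein and presenilin 1 under a prion protein promoter, and WT mice carry neither. At 4 months, an age that the study places before any amyloid deposition, there were 5 WT and 4 APP/PS1 libraries in each Ki67 state. At 6 months there were 2 WT and 2 APP/PS1 libraries of Ki67+ cells and 3 and 2 of Ki67- cells, and at 12 months 4 and 4 of Ki67+ cells and 3 and 4 of Ki67- cells. The labels do not tie libraries to mice, so a p-value measures the spread between libraries only. In such bulk samples fewer cells of a type and less RNA per cell cannot be told apart.

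Some groups stood apart from the rest. The 3 WT Ki67- libraries of 12 months differed among themselves by a median SD of 0.032 per gene, against 0.18 to 0.37 in the other 11 groups. Calls that rest on them are given below also with these libraries counted as 1. Unless said otherwise, SEs count them as 3 and are too small if they are not separate. The 8 microglial markers, Cx3cr1, P2ry12, Tmem119 and Csf1r among them, had a mean log2 level of 13.18 to 13.77 in 11 groups and of 12.42 in the 2 WT Ki67+ libraries of 6 months. At the same age the 8 oligodendrocyte markers reached 11.47 in WT and 12.70 in APP/PS1 Ki67+ microglia, against 8.45 to 10.59 in the other groups. The 8 astrocyte markers lay at 9.03 to 10.91 in Ki67+ and at 7.90 to 8.56 in Ki67- groups. The part of these markers in the results below was not tested, except where a value is given beside a result. Levels are log2 values that were not divided by gene length, so they compare libraries and not genes, and differences of genes near the low end of the scale, where 5% of values lie under 6.24, are understated.

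Among the lysosomal genes, Cst7 gave the largest differences of the 8. In Ki67- microglia at 4 months its log2 level was 6.26, 6.83, 7.07, 7.12 and 7.44 in the 5 WT libraries and 8.41, 8.68, 9.38 and 9.94 in the 4 APP/PS1 libraries. At 6 months it was 6.69, 7.01 and 7.51 in WT and 11.85 and 11.86 in APP/PS1 mice. By 12 months it was 7.75, 7.77 and 7.79 in WT and 13.01, 13.45, 13.75 and 13.94 in APP/PS1 mice. The groups did not overlap at any age, and the APP/PS1 libraries of each age lay above those of the age before. The APP/PS1 minus WT difference was 2.16 ± 0.49 (SE) at 4 months, 4.78 ± 0.67 at 6 months and 5.77 ± 0.56 at 12 months on the log2 scale. Measured this way, Cst7 had the largest difference of the 14910 genes at all 3 ages in Ki67- microglia. Since large differences of this kind chose the gene, the rank is no finding.

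In Ki67+ microglia the Cst7 difference was already large at 4 months. WT libraries had log2 levels of 7.85, 7.86, 8.16, 8.40 and 9.13 and APP/PS1 libraries of 10.69, 10.97, 11.12 and 12.98. At 6 months the WT libraries were at 6.62 and 6.80 and the APP/PS1 libraries at 11.08 and 12.08. At 12 months WT libraries were at 9.58, 10.79, 10.93 and 12.76, and APP/PS1 libraries at 13.70, 14.10, 14.30 and 14.59. The groups were again apart at every age, but the WT libraries of 12 months spread widely and the highest came within 1 log2 unit of the lowest APP/PS1 library. The difference was 3.16 ± 0.49, 4.87 ± 0.73 and 3.15 ± 0.52 at 4, 6 and 12 months, so it was not larger at 12 than at 4 months, while the level itself was higher at 12 than at 4 months by 2.73 in APP/PS1 and by 2.74 in WT mice.

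Pld3 separated later. In Ki67+ microglia at 6 months its log2 level was 10.16 and 10.59 in WT and 11.50 and 11.56 in APP/PS1 libraries. At 12 months WT libraries were at 10.65, 10.92, 10.92 and 11.25 and APP/PS1 libraries at 11.84, 12.08, 12.17 and 12.19. Both ages were without overlap, with differences of 1.16 ± 0.30 and 1.13 ± 0.21, whereas at 4 months the groups overlapped with a difference of 0.27 ± 0.20. In Ki67- microglia the groups overlapped at 4 months (0.06 ± 0.20) and at 6 months (0.27 ± 0.28). At 12 months the 4 APP/PS1 libraries were at 12.10, 12.45, 12.46 and 12.57 and the 3 WT libraries at 8.93, 8.96 and 8.98, a difference of 3.44 ± 0.23. These WT libraries were also far below the WT Ki67- libraries of 4 and 6 months, which lay between 10.58 and 11.16. Against those 8 libraries, the APP/PS1 level of 12 months was higher by 1.52 ± 0.19, so more than 1 log2 unit of the difference at 12 months came with the low WT level.

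The membrane genes Baiap2l2 and Myo1e moved almost together. For Baiap2l2 in Ki67- microglia, log2 levels at 4 months ran from 6.25 to 6.58 in WT and from 6.72 to 7.20 in APP/PS1 libraries. At 6 months they were 6.35, 6.44 and 6.53 in WT and 8.02 and 8.29 in APP/PS1 libraries. At 12 months they were 6.19, 6.19 and 6.20 against 8.80, 8.97, 9.09 and 9.11. The WT levels stayed near the low end of the scale and the APP/PS1 levels left it step by step, with differences of 0.61 ± 0.17, 1.71 ± 0.24 and 2.80 ± 0.20. In Ki67+ microglia the Baiap2l2 groups were also apart at each age, with differences of 0.69 ± 0.17 at 4 months, 1.2 ± 0.26 at 6 months and 1.23 ± 0.18 at 12 months.

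Myo1e overlapped between genotypes at 4 months, where the difference was 0.49 ± 0.27 in Ki67- and 0.13 ± 0.27 in Ki67+ microglia. From 6 months it did not overlap. In Ki67- microglia its log2 level was 7.65, 7.72 and 8.16 in WT and 9.37 and 9.40 in APP/PS1 libraries at 6 months, and 7.04, 7.06 and 7.07 against 9.57, 10.37, 10.57 and 11.07 at 12 months. The differences were 1.54 ± 0.37 and 3.34 ± 0.31, and the second was 2.69 ± 0.25 against the WT Ki67- libraries of 4 and 6 months. In Ki67+ microglia they were 1.43 ± 0.41 at 6 months and 1.73 ± 0.29 at 12 months, where WT libraries ran from 7.80 to 8.76 and APP/PS1 libraries from 9.78 to 10.19. The WT Ki67+ library that was highest for Myo1e at 12 months was also the highest of its group for Cst7, Baiap2l2 and Pld3.

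Haghl followed another course. Its groups overlapped in both Ki67 states at 4 and 6 months, with differences between -0.42 and -0.04. At 12 months in Ki67- microglia, APP/PS1 libraries were at 8.55, 9.32, 9.41 and 10.05 and WT libraries at 6.85, 6.90 and 6.98, a difference of 2.42 ± 0.34 on the log2 scale. The APP/PS1 range overlapped the WT Ki67- libraries of 4 and 6 months (7.83 to 9.25), against which the difference was 1.00 ± 0.27. In Ki67+ microglia at 12 months the order was the opposite, with WT libraries at 9.07, 9.08, 9.22 and 9.37 above APP/PS1 libraries at 8.55, 8.59, 8.61 and 9.02, a difference of -0.49 ± 0.31.

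The 2 adhesion genes were lower in APP/PS1 microglia at 12 months, Ctnnd2 without overlap in both Ki67 states and Ntm in Ki67- microglia only. Ctnnd2 was at 9.86, 9.91, 10.03 and 10.22 in WT and at 8.15, 8.61, 8.63 and 8.80 in APP/PS1 Ki67+ libraries, a log2 difference of -1.46 ± 0.22. In Ki67- libraries it was at 9.06, 9.08 and 9.08 in WT and at 6.73, 7.04, 7.17 and 7.29 in APP/PS1 mice, a difference of -2.01 ± 0.23. Both comparisons were without overlap, and against the WT Ki67- libraries of 4 and 6 months the second difference was -1.15 ± 0.19. At 4 and 6 months Ctnnd2 overlapped between genotypes, with differences between -0.32 and 0.20.

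Ntm was at 8.82, 8.83 and 8.85 in WT and at 6.88, 6.89, 7.18 and 7.21 in APP/PS1 Ki67- libraries of 12 months, a log2 difference of -1.79 ± 0.21. The APP/PS1 level resembled that of WT Ki67- microglia at 4 and 6 months, which ran from 6.93 to 7.35, and against those libraries the difference was -0.12 ± 0.17. The Ntm difference thus came with a WT group that was high, as the plot of levels shows. In Ki67+ microglia the Ntm groups overlapped at each age, and the differences were 0.41 ± 0.19, -0.16 ± 0.28 and -0.36 ± 0.20.

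Zfp462 separated in Ki67+ microglia only, and in opposite directions. At 4 months its log2 level was 6.21, 6.36, 6.54, 6.71 and 6.73 in WT and 6.99, 7.62, 7.91 and 8.11 in APP/PS1 libraries, a difference of 1.15 ± 0.20. At 12 months it was 7.28, 7.36, 7.38 and 7.39 in WT and 6.50, 6.62, 6.63 and 6.66 in APP/PS1 libraries, a difference of -0.75 ± 0.21. In between, at 6 months, the groups overlapped (-0.02 ± 0.30). In Ki67- microglia Zfp462 ran from 6.43 to 6.90 over all libraries, close to the low end of the scale, with differences between -0.10 and 0.06.

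**Figure D1:**
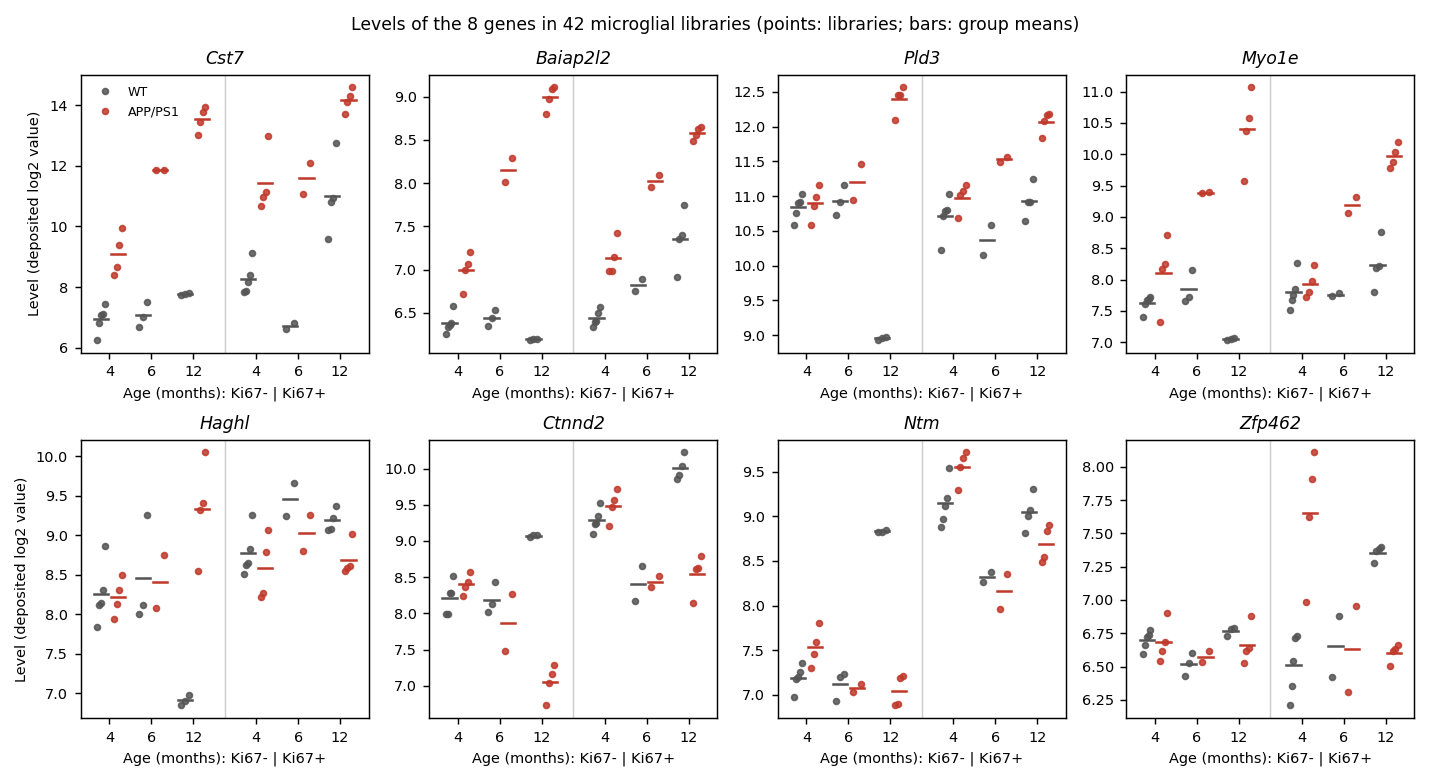
Log2 level (deposited value) of each of the 8 selected genes by age in months, Ki67- libraries on the left and Ki67+ on the right of each panel, with WT in grey, APP/PS1 in red, points for libraries and bars for group means. Cst7 and Baiap2l2 lie apart between genotypes at all 3 ages. The 3 WT Ki67- libraries of 12 months lie below the younger WT Ki67- libraries for Pld3, Haghl, Myo1e and, narrowly, Baiap2l2. They lie above them for Ctnnd2, Ntm and, by less, Cst7.

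Placed in order of their first separation, the selected genes formed a different sequence in each Ki67 state. In Ki67+ microglia, Cst7, Baiap2l2 and Zfp462 were apart at 4 months, 3 of 8 genes, where 1.3% of all 14910 genes had every APP/PS1 library above every WT library. At 6 months Myo1e and Pld3 had joined and Zfp462 had dropped out, which left 4 of 8 beside 31.5% of all genes, and at 12 months the same 4 genes were apart beside 15.6%. Haghl, Ctnnd2 and Zfp462, 3 of 8, lay below WT at 12 months, beside 18.2% of all genes. In Ki67- microglia, Cst7 and Baiap2l2 were apart at 4 months beside 3.14% of all genes, Myo1e joined at 6 months beside 11.2%, and Pld3 and Haghl at 12 months, when 5 of 8 genes lay above beside 23.1% and 2 of 8, Ctnnd2 and Ntm, below beside 24.3%. Since these contrasts chose the genes, nothing is read from the counts. With a difference of at least 1 on the log2 scale in place of no overlap, Baiap2l2 moved from 4 to 6 months in both states and the other first ages stayed as they were.

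As a share of the difference at 12 months in Ki67- microglia, Cst7 had reached 37.4% at 4 months and 82.9% at 6 months, Baiap2l2 22% and 61.3%, Myo1e 14.7% and 46.2%, and Pld3 1.65% and 7.8%. In Ki67+ microglia most of the difference was in place by 6 months, at 154% for Cst7, 102% for Pld3, 97.8% for Baiap2l2 and 82.9% for Myo1e. These shares compare log2 differences, and each age has its own WT libraries. For the Ki67+ libraries of 6 months they also depend on the scaling. With each library's microglial marker mean subtracted, the Ki67+ differences at 6 months were 3.54 for Cst7, -0.12 for Baiap2l2, -0.17 for Pld3 and 0.11 for Myo1e, the median of all genes moved by -1.31, and 1 of 8 genes in place of 4 was without overlap.

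**Figure D2:**
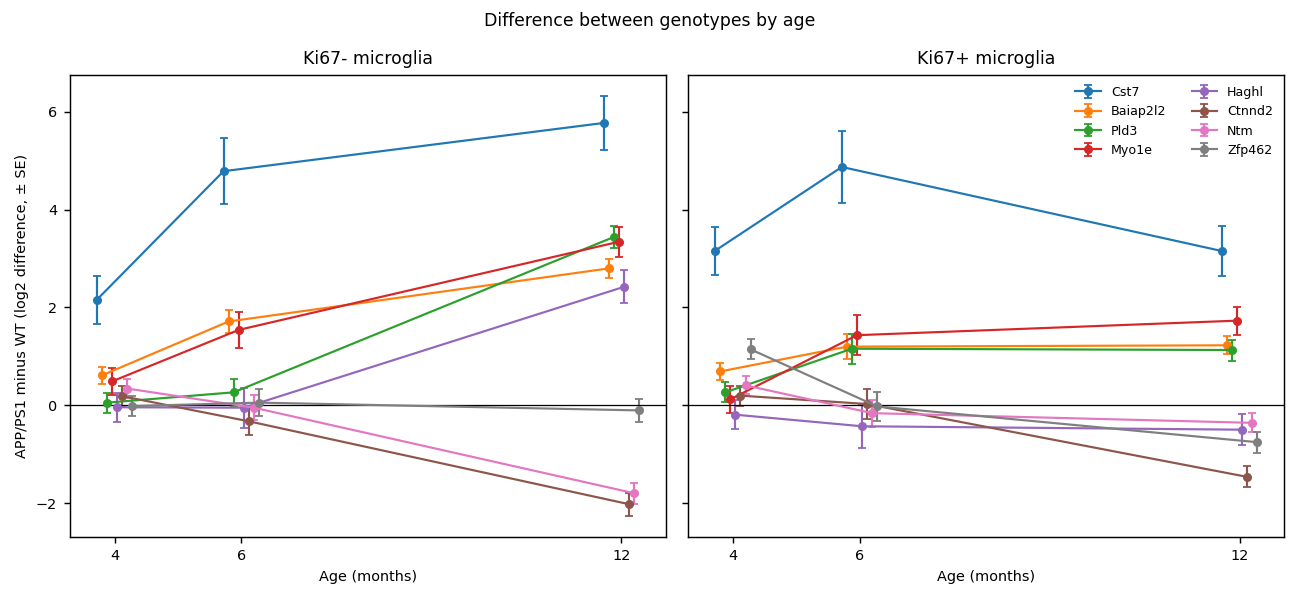
APP/PS1 minus WT difference on the log2 scale (points, with SE bars) against age in months for the 8 selected genes, Ki67- microglia on the left and Ki67+ on the right. Cst7 climbs from 2.16 to 5.77 in Ki67- microglia and peaks at 4.87 at 6 months in Ki67+ microglia, while Pld3 and Haghl leave 0 only at 12 months in Ki67- microglia.

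**Figure D3:**
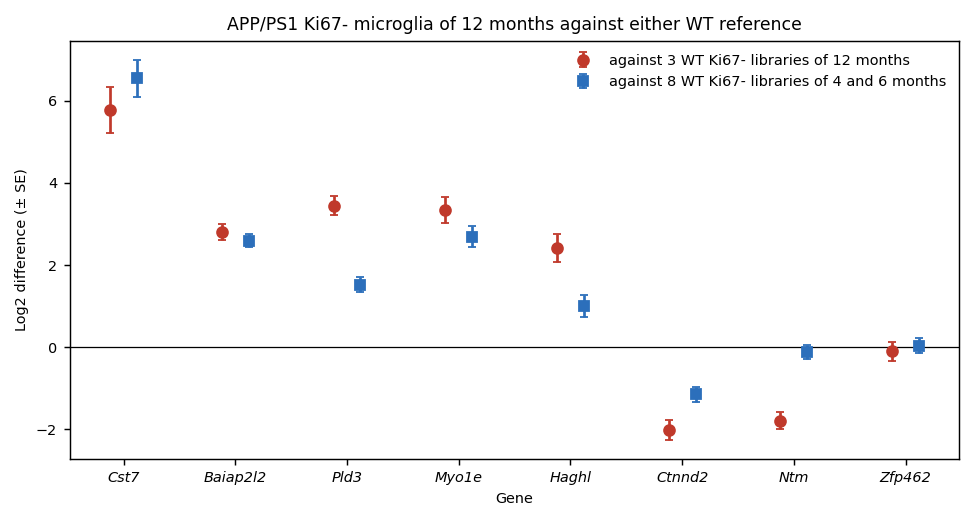
Log2 difference (with SE bars) of APP/PS1 Ki67- microglia of 12 months from the 3 WT Ki67- libraries of 12 months (red circles) and from the 8 WT Ki67- libraries of 4 and 6 months (blue squares), for the 8 selected genes. Cst7, Baiap2l2 and Myo1e are high against either reference, Pld3 falls from 3.44 to 1.52, and Ntm goes from -1.79 to -0.12.

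The difference between Ki67+ and Ki67- microglia took no part in choosing the genes. It was tested with limma, with Benjamini-Hochberg adjustment over all 14910 genes and an FDR of 0.05. Averaged over the genotypes it is nearly independent of the APP/PS1 minus WT difference where the genotypes have similar numbers of separate libraries. That average is given first. At 12 months the independence is lost in part if the closely similar WT Ki67- libraries are not separate, since their level enters both differences. Zfp462 is a further exception. It passed the filter on low values only through Ki67+ groups, among them the APP/PS1 group of 4 months in which it was selected. Its Ki67 call is given as a description. At 4 months Cst7, Ctnnd2, Ntm and Zfp462 were higher in Ki67+ microglia, 4 of 8 genes, where 25.7% of all genes were called higher and 45.7% in either direction. At 6 months 2 of 8 were called, Haghl and Ntm, beside 19.6% called higher and 38.8% in either direction. At 12 months 6 of 8 were called, all higher, beside 28.3% and 49.9%. Since a gene could be called either way, the shares at 4 and 6 months were close to the background or under it.

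Ntm was the 1 selected gene called at all 3 ages. Its average log2 level at 4 months was 9.35 in Ki67+ and 7.37 in Ki67- microglia, and the difference was 1.98 ± 0.13 (limma adjusted p = 6.26e-12). At 6 months it was 1.14 ± 0.19 (limma adjusted p = 3.6e-05) and at 12 months 0.93 ± 0.14 (limma adjusted p = 8.15e-06). In APP/PS1 mice of 12 months it was 1.65 ± 0.20, with Ki67+ libraries from 8.49 to 8.90 and Ki67- libraries from 6.88 to 7.21, whereas in WT mice of that age the libraries overlapped and the difference was 0.21 ± 0.21 (limma adjusted p = 0.427). Ctnnd2 was higher in Ki67+ microglia by 1.08 ± 0.14 at 4 months (limma adjusted p = 1.19e-06) and by 1.21 ± 0.16 at 12 months (limma adjusted p = 8.09e-07). At 6 months its difference of 0.39 ± 0.21 did not pass (limma adjusted p = 0.134). The mean of the 8 astrocyte markers was also higher in Ki67+ than in Ki67- microglia. At 4 months it was 10.66 against 8.03 in WT and 10.80 against 8.54 in APP/PS1 mice. Its part in the Ki67 differences of Ntm and Ctnnd2 was not tested.

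Cst7 was higher in Ki67+ microglia by 1.83 ± 0.35 at 4 months (limma adjusted p = 0.000126) and by 1.94 ± 0.38 at 12 months (limma adjusted p = 0.000162), with no overlap at 4 months in either genotype. In WT mice alone the 4-month difference was 1.33 ± 0.46 (limma adjusted p = 0.0275), a call that was lost without WT Ki67+ replicate 2 (1.12) or WT Ki67- replicate 3 (1.16). In APP/PS1 mice alone it was 2.33 ± 0.52 (limma adjusted p = 0.00208). At 6 months it was -0.32 ± 0.50 over the genotypes (limma adjusted p = 0.641). In APP/PS1 mice of 12 months Ki67+ and Ki67- libraries overlapped and differed by 0.63 ± 0.52 (limma adjusted p = 0.421).

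The Ki67 difference at 12 months was 3.25 ± 0.56 for Cst7 in WT mice, against 0.63 in APP/PS1 mice. The averages of Pld3, Baiap2l2 and Haghl also rested on WT mice. The WT Ki67- libraries of 12 months also entered the contrasts that chose the genes. The 12-month calls of Cst7, Pld3, Baiap2l2 and Haghl therefore give no clearly independent support. Pld3 differed by 0.83 ± 0.16 over the genotypes (limma adjusted p = 0.000119), by 1.98 ± 0.23 in WT and by -0.33 ± 0.21 in APP/PS1 mice. Haghl differed by 0.82 ± 0.23 over the genotypes (limma adjusted p = 0.00467), by 2.28 ± 0.34 in WT and by -0.64 ± 0.31 in APP/PS1 mice. Baiap2l2 differed by 0.37 ± 0.14 over the genotypes (limma adjusted p = 0.024), a call lost with the 3 WT Ki67- libraries counted as 1 (limma adjusted p = 0.0905) and without WT Ki67+ replicate 4 of 12 months (0.31). Counted as 1, the WT Ki67- libraries left 5 of 8 genes called in place of 6, with limma adjusted p-values of 0.00293 for Cst7, 0.00234 for Pld3, 0.0305 for Haghl, 5.11e-05 for Ctnnd2 and 0.000312 for Ntm. The Haghl call at 6 months, 0.81 ± 0.30 (limma adjusted p = 0.035), was lost on leaving out any of 5 single libraries, and the Zfp462 call at 4 months, 0.39 ± 0.14 (limma adjusted p = 0.0265), without APP/PS1 Ki67+ replicate 3 (0.32). By genotype, Zfp462 differed at 4 months by 0.97 ± 0.21 in APP/PS1 mice and by -0.19 ± 0.19 in WT mice, so the average came from APP/PS1 Ki67+ microglia alone. With library medians subtracted, the calls of Baiap2l2 at 12 months (0.28) and of Zfp462 at 4 months (0.31) were lost too. Myo1e passed at no age over the genotypes, with differences of 0.01 ± 0.19, -0.14 ± 0.27 and 0.38 ± 0.21.

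**Figure D4:**
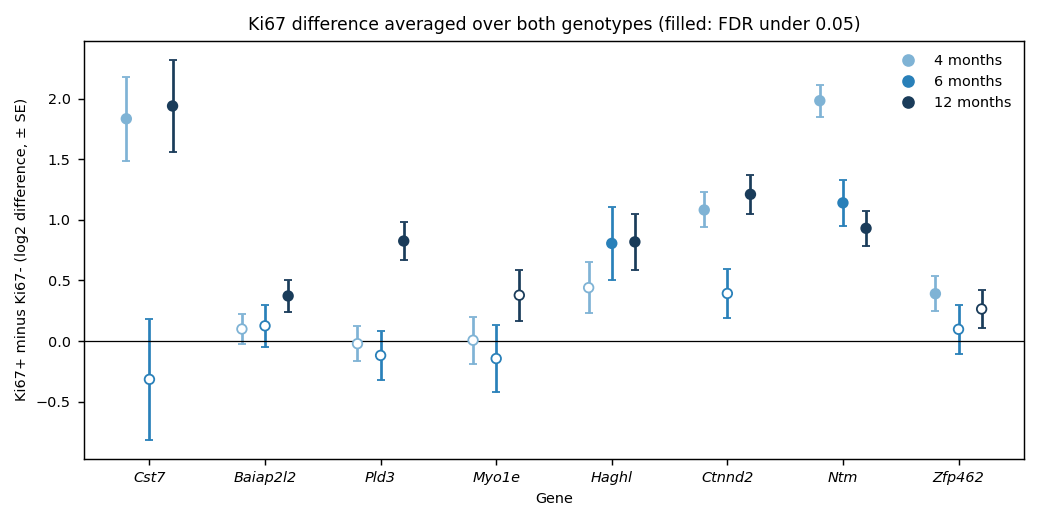
Ki67+ minus Ki67- log2 difference averaged over both genotypes (with SE bars) for the 8 selected genes at 4, 6 and 12 months, filled where limma called it at an FDR of 0.05. Ntm is filled at all 3 ages, Cst7 and Ctnnd2 at 4 and 12 months, and Myo1e at none.

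By genotype, the limma calls at 12 months were 7 of 8 in WT mice, beside 46.3% of all genes, and 2 of 8, Ctnnd2 and Ntm, in APP/PS1 mice, beside 17.8%. At 4 months they were 3 of 8 in WT (beside 33.8%) and 4 of 8 in APP/PS1 mice (beside 21.5%), and at 6 months Ntm alone in either genotype (beside 36.8% and 7.81%). The Ntm call in APP/PS1 mice of 6 months was lost without Ki67- replicate 1 (1.04) or Ki67+ replicate 2 (0.89). Each of these comparisons shares its libraries with the contrasts that chose the genes, which favour extreme levels in single groups, so their calls give no independent support. With the 3 WT Ki67- libraries counted as 1, 5 genes were called in place of 7, and Myo1e and Zfp462 were lost. No test was made of whether the Ki67 difference differed between genotypes, since that quantity is also the change of the APP/PS1 minus WT difference between Ki67 states.

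Age within WT mice was tested in the same limma fit. In Ki67+ microglia, 3 of 8 genes were higher at 12 than at 4 months, where 0.993% of all genes were called in either direction and 0.496% higher. Cst7 rose by 2.74 ± 0.49 (limma adjusted p = 0.00545), Baiap2l2 by 0.91 ± 0.17 (limma adjusted p = 0.00839) and Zfp462 by 0.84 ± 0.20 (limma adjusted p = 0.0332), and no WT library of 12 months overlapped those of 4 months for these genes. These WT libraries took part in choosing the genes. Selection for a large APP/PS1 minus WT difference favours a low WT level of Cst7 and Baiap2l2 at either age, and for Zfp462, which was higher in APP/PS1 mice at 4 and lower at 12 months, it favours the direction found, so these calls give no independent support. For Cst7 and Baiap2l2 the call was kept under each alternative. The Zfp462 call was lost on leaving out any of 6 single libraries. At 6 months the WT Ki67+ libraries of Cst7 (6.62 and 6.80) lay below those of 4 months, with a difference of -1.57 ± 0.61 that did not pass (limma adjusted p = 0.0601) and was -0.28 with the microglial marker mean subtracted. Ctnnd2 (-0.88 ± 0.25, limma adjusted p = 0.0121) and Ntm (-0.82 ± 0.23, limma adjusted p = 0.01) were lower at 6 than at 4 months, beside 26% of all genes called, in a group whose microglial marker mean was also lower by over 1 log2 unit, and both turned positive with that mean subtracted, to 0.40 and 0.46. Both calls were also lost without WT Ki67+ replicate 2 of 6 months (-0.64 and -0.76).

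In WT Ki67- microglia none of the 8 genes was called between 6 and 4 months, and none had an unadjusted limma p under 0.05, beside 0.134% of all genes called. Between 12 and 4 months 4 of 8 were called, beside 12.2% of all genes. Pld3 fell by 1.88 and Haghl by 1.35, whereas Ctnnd2 was higher by 0.86 ± 0.22 and Ntm by 1.64 ± 0.20. These 3 libraries of 12 months took part in choosing the genes, and the direction of each change is the one that enlarges the APP/PS1 minus WT difference. Counted as 1 library they left 2 calls, Pld3 (limma adjusted p = 0.0122) and Ntm (limma adjusted p = 0.0135). The change from 4 to 12 months differed between Ki67+ and Ki67- WT microglia for 4 genes, beside 4.03% of all genes, and with the 3 libraries counted as 1 for Pld3 alone, at 2.11 ± 0.39 (limma adjusted p = 0.0234).

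Relatives of the selected genes were mostly not called, and in Ki67- microglia at 12 months few calls held with the 3 WT libraries counted as 1. Of the 13 tested cystatins, cathepsins and legumain, 5 were higher in APP/PS1 Ki67- microglia at 12 months and none lower, beside 8.71% of all genes called higher. Among the cathepsins, the lysosomal proteases that cystatins inhibit, Ctsl was higher by 2.31 ± 0.29 (limma adjusted p = 4.93e-06), Ctsz by 1.97 ± 0.21 (limma adjusted p = 7.78e-07) and Ctsb by 1.65 ± 0.22 (limma adjusted p = 1.62e-05). These 3 calls were kept with the WT libraries counted as 1 (limma adjusted p = 0.00327, 0.000908 and 0.00732), whereas those of Ctss (0.87 ± 0.23) and the cystatin Cstb (0.83 ± 0.27) were lost. Cst3, which encodes cystatin C, differed by 0.09 ± 0.22 (limma adjusted p = 0.837). In Ki67+ microglia of 12 months 4 of the 13 were higher, Ctsl by 1.25 ± 0.27, Ctsz by 1.16 ± 0.20, Ctsb by 1.04 ± 0.21 and Ctss by 0.69 ± 0.21, beside 4.43%.

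In the other families single genes passed. Of the 5 relatives of Pld3, Pld5 was called in Ki67- microglia at 12 months (0.82 ± 0.20, limma adjusted p = 0.00575, or 0.153 with the WT libraries counted as 1), and Pld4, another lysosomal nuclease, differed by -0.34 ± 0.25 (limma adjusted p = 0.386). Of the class I myosins, the relatives of Myo1e, Myo1g (-1.44 ± 0.33) and Myo1h (-1.66 ± 0.36) were lower in Ki67+ microglia, beside 5.34% of all genes called lower. Of the 4 relatives of Baiap2l2, Baiap2l1 was higher in Ki67+ microglia (0.81 ± 0.20, limma adjusted p = 0.012). None of the 3 tested relatives of Ctnnd2 (Ctnnd1, Arvcf and Pkp4) was called by limma at 12 months, with 2 in Ki67+ and 1 in Ki67- microglia at an unadjusted p under 0.05. Of the 3 tested IgLON genes, the relatives of Ntm, Lsamp (-1.03 ± 0.24) and Negr1 (-0.83 ± 0.25) were lower in Ki67+ microglia. Opcml was called lower in Ki67- microglia (-0.65 ± 0.21, limma adjusted p = 0.036, or 0.33 counted as 1), beside 7.72% of all genes. Hagh, the glyoxalase gene that Haghl resembles, was opposite in sign to Haghl in Ki67- microglia (-1.15 ± 0.32, limma adjusted p = 0.0143, or 0.228 counted as 1).

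The DAM list, 29 genes without the selected ones and with Ctsb, Ctsl and Ctsz in common with the cathepsins above, gave the context for Cst7, Baiap2l2, Pld3 and Myo1e. At 4 months 2 of 29 genes, Lpl and Ccl6, were called higher by limma in Ki67+ APP/PS1 microglia, beside 0.0268% of all genes, and none in Ki67- microglia, beside 0%, where 4 of 29 had an unadjusted p under 0.05. Without APP/PS1 replicate 1 or 3 or WT replicate 3 no DAM gene was called in Ki67+ microglia at 4 months. At that age Cst7 differed by 3.16 and 2.16, while the median log2 difference of the DAM genes was 0.47 in Ki67+ and 0.11 in Ki67- microglia. Cst7 was selected on this difference, so the contrast with the DAM genes is a description only. At 6 months 15 of 29 were called in Ki67+ microglia (median 1.48), beside 6.95% of all genes, which became 8 without APP/PS1 replicate 1 and 4 with the microglial marker mean subtracted. Homeostatic genes were called in the same comparison too, 10 of 15 higher with a median of 1.25. In Ki67- microglia it was 2 of 29 DAM genes at 6 months, Lpl and Axl (median 0.83), beside 0.0469%, and 1 without APP/PS1 replicate 1.

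At 12 months 22 of 29 DAM genes were called higher in Ki67+ microglia, beside 4.43% of all genes, and 25 in Ki67- microglia, beside 8.71%, or 18 in the latter with the WT libraries counted as 1. Their medians were 1.25 and 1.88, against -0.02 and -0.0050 over all tested genes. The largest differences in Ki67- microglia were those of Lpl, a lipase (4.77 ± 0.38), Fabp5, a fatty acid binding protein (4.37 ± 0.35), Ank, a membrane transporter (4.31 ± 0.40) and Igf1, a growth factor (3.94 ± 0.49), all under the 5.77 of Cst7. In Ki67+ microglia they were those of Clec7a, a surface lectin (2.30 ± 0.50), Gpnmb (2.28 ± 0.40), Igf1 (2.10 ± 0.45) and Lilrb4a (2.02 ± 0.32), against 3.15 for Cst7. Because Cst7 was selected on this difference, nothing is read from its larger values. In WT Ki67+ microglia 4 of 29 DAM genes were also higher at 12 than at 4 months, beside 0.496% of all genes called higher. Lpl rose by 1.64 ± 0.33, Ccl6 by 1.54 ± 0.34, Axl by 1.4 ± 0.30 and Ank by 1.39 ± 0.35. The calls of Cst7 and Baiap2l2 in that comparison, given above, are no independent support for a shared rise. Of 15 homeostatic genes, Tmem119, Sall1 and Txnip were lower at 12 months in Ki67+ microglia, by 1.11, 0.70 and 0.95 on the log2 scale, and Fcrls was higher by 0.82 ± 0.25. The same 3 were called lower in Ki67- microglia, and none of them with the WT libraries counted as 1.

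Over the 42 libraries the selected genes fell into groups that differed in their course. As a description, with libraries that share groups and processing, Pearson's r was 0.95 between Baiap2l2 and Myo1e, 0.92 between Cst7 and Baiap2l2, 0.86 between Pld3 and Myo1e and 0.84 between Ctnnd2 and Ntm. It was 0.59 between Haghl and Pld3 and -0.52 between Myo1e and Ctnnd2. The genes with the highest r to Cst7 were Lpl (0.95), Itgax (0.93) and Baiap2l2, and those to Baiap2l2 were Myo1e, Itgax (0.94) and Axl (0.93). Pld3 was nearest to Myo1e, Ctsz (0.84) and Ctsa (0.83), and Myo1e to Baiap2l2, Ctsb (0.90) and Ctsz (0.89). Haghl was nearest to Mx1 (0.78), Bysl (0.77) and Trmt10c (0.76), and Zfp462 to Shisa9 (0.82), Proca1 (0.75) and Decr2 (0.73). Over the 12 group means, the same 3 nearest genes came out for Baiap2l2, and none of them for Pld3 and Haghl.

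Ctnnd2 and Ntm were nearest to genes outside the DAM list. The highest r was to Dmd (0.88), Klf9 (0.88) and Igsf11 (0.88) for Ctnnd2 and to Cpe (0.94), Dmd (0.94) and Sparcl1 (0.94) for Ntm. The mean of the 8 astrocyte markers had an r of 0.81 with Ctnnd2 and of 0.89 with Ntm over the 42 libraries. For Myo1e and Cst7 it was -0.09 and 0.25. Within the 21 Ki67- libraries r was 0.67 for Ctnnd2 and 0.62 for Ntm, and within the 21 Ki67+ libraries 0.78 and 0.76. At 12 months that mean was 8.56 in WT and 7.91 in APP/PS1 Ki67- microglia and 10.91 and 10.35 in Ki67+ microglia. Ctnnd2 was likewise lower in APP/PS1 mice in both states, as was Ntm, though its Ki67+ libraries overlapped between genotypes. Of the 8 astrocyte markers, 2 were called lower by limma in Ki67+ and 3 in Ki67- microglia at 12 months, or 1 in the latter (Aldoc) with the WT libraries counted as 1. In Ki67+ microglia 1 of the 8 oligodendrocyte markers was called higher and 1 of the 12 neuronal markers lower. In Ki67- microglia 2 oligodendrocyte markers were called higher, 2 of the 8 tested peripheral immune markers lower, and of 7 endothelial markers 1 higher (Flt1, 2.03) and 1 lower (Pecam1, -0.78). With the WT libraries counted as 1, 1 of these Ki67- calls remained, that of a peripheral immune marker. The shares of all genes called were 4.43% higher and 5.34% lower in Ki67+ and 8.71% and 7.72% in Ki67- microglia. The 3 WT Ki67- libraries of 12 months had log2 levels of Ctnnd2 and Ntm above those of other Ki67- libraries with a similar marker mean.

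**Figure D5:**
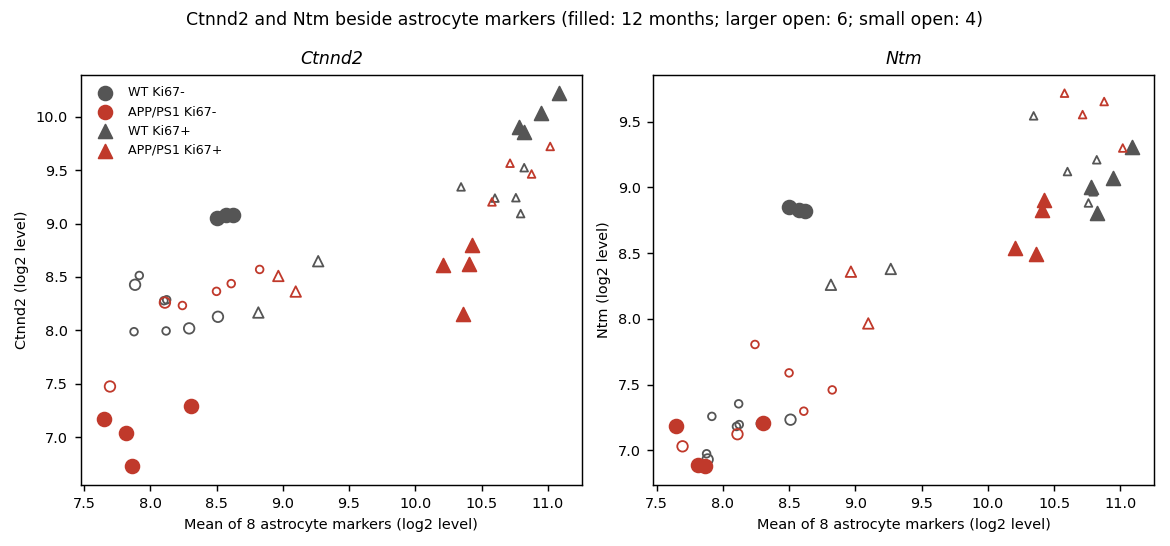
Log2 level of Ctnnd2 (left) and Ntm (right) against the mean log2 level of 8 astrocyte markers in 42 libraries, WT in grey and APP/PS1 in red, circles for Ki67- and triangles for Ki67+, filled at 12 months. Both genes are higher where the marker mean is higher, with r of 0.81 and 0.89, and the 3 WT Ki67- libraries of 12 months stand above the rest at their marker mean.

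The selected genes shared no position in the genome (GRCm38, GENCODE M21). Cst7 lies at chr2:150570415-150578944 on the plus strand, Zfp462 at chr4:54945048-55083563 (plus), Pld3 at chr7:27532000-27553218 (minus) and Haghl at chr17:25779843-25785673 (minus). Ntm (chr9:28994750-29963141, minus) and Myo1e (chr9:70207350-70399766, plus) share a chromosome, as do Ctnnd2 (chr15:30172593-31029341, plus) and Baiap2l2 (chr15:79258195-79285537, minus), in no case next to each other. All 8 are annotated as protein coding, and they span 5.83 kb for Haghl to 968 kb for Ntm.

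Sequences upstream of the start were at hand for 6 of the 8 genes, from RefSeq on GRCm38.p6, and were searched on both strands for GGAAGT (an ETS core, the kind of site that the microglial factor PU.1 uses), TGANTCA (AP-1) and CACGTG (an E-box). In the 250 bases before the start, these letters stood in 19.7%, 6.75% and 6.02% of 32851 promoters. Cst7 held GGAAGT at 1 place, Pld3 at 2, Haghl at 1 in 1 of its 3 entries and Myo1e, Ctnnd2 and Ntm at none. AP-1 and E-box letters were in none of the windows of these 6 genes. The Ntm windows and the Haghl window with GGAAGT lie within the gene spans given above, before starts inside the gene. All 3 Haghl windows also overlap a Haghl exon, and the Pld3 window overlaps an exon of another gene, 2310022A10Rik. Cst7 and Myo1e are shown because their levels moved together (r = 0.84) while only the former has the letters, printed in capitals. Cst7 covers chr2:150570165-150570414 and Myo1e chr9:70207100-70207349, both 5′ to 3′ on the plus strand.
Cst7: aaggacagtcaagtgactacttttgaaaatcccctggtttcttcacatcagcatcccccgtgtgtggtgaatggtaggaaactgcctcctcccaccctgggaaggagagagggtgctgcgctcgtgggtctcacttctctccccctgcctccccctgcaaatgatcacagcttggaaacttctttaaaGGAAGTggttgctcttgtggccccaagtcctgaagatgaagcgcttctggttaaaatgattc
Myo1e: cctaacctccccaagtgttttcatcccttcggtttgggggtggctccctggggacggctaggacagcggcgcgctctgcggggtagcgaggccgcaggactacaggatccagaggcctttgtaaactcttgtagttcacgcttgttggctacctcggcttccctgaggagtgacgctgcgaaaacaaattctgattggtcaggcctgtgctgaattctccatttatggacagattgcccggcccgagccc
A match is a description of letters and not a binding site, and its absence says nothing of the factor.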

How the data were processed

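RNA was sequenced from 42 libraries of sorted, fixed microglia. The authors demultiplexed reads with bcl2fastq 2.20, quantified transcripts with kallisto 0.43.1 and normalised with DESeq2 (tools per the labels; build GRCm38). The deposited values are log2-scale scores, from which the authors had removed 10 surrogate variables while keeping the 12 groups. Raw counts were not analysed here, so depth per library is unknown.

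The score values were tested in limma 3.58.1 (R 4.3.3) with 12 group means. Residuals had a rank of 20 and not 30, so 20 residual degrees of freedom were used. The test covered the 14910 genes whose mean reached 7 in some group, 4241 were left out, and p-values were adjusted by Benjamini-Hochberg. The code was tested on simulated data. The members and lists were chosen with earlier results of these data known. The text names all 8 members, relatives of theirs that were called or are close in function (results of some are not reported here), up to 4 DAM and homeostatic genes per direction with the largest differences called at 12 months, and for each member the 3 genes with the highest r. Aldoc, Flt1, Pecam1 and the DAM genes named for 4 and 6 months or for age were named after their values were seen. The Ki67 difference averaged over genotypes, the WT libraries counted as 1 and the reference of 4 and 6 months were added after seeing the data.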

Additional observations from a re-analysis of the deposited data

Results flagged for a closer look

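Haghl had 1 library that stood apart from its group. In APP/PS1 Ki67+ microglia at 12 months, replicate 4 was at a log2 level of 9.02 and the others reached 8.61 at most. Over the 56 sets of 4 or 5 libraries examined, 1 in 20 would stand apart this far by chance, and this was the single case found.

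The change from 4 to 12 months in WT mice differed between Ki67+ and Ki67- microglia for 4 selected genes, tested in limma, beside 4.03% of all genes. These WT libraries took part in choosing the genes, so the calls give no independent support. The difference between the changes was 1.10 for Baiap2l2 (limma adjusted p = 0.019), 2.11 for Pld3 (limma adjusted p = 0.000373), 1.76 for Haghl (limma adjusted p = 0.025) and -1.74 for Ntm (limma adjusted p = 0.00145). With the 3 WT Ki67- libraries of 12 months counted as 1, Pld3 alone passed (limma adjusted p = 0.0234).

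In 4 other cases every library of a contrast moved one way in one setting and the opposite way in another, and none of these differences was tested. The Ki67+ minus Ki67- log2 difference of Baiap2l2 at 12 months was 1.16 in WT and -0.41 in APP/PS1 mice, and that of Pld3 at 6 months was -0.56 in WT and 0.33 in APP/PS1 mice. The APP/PS1 minus WT difference of Haghl at 12 months was -0.49 in Ki67+ and 2.42 in Ki67- microglia. For Zfp462 in Ki67+ microglia that difference was 1.15 at 4 months and -0.75 at 12 months.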

How the results depend on the processing

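Among recomputed counts, 328 were within 1.5 times the value given and 29 were not. Among recomputed Ki67 and age differences of single selected genes, 1682 kept the call or its absence, 39 lost the call and 37 gained it. A further 7 changed sign with a call in either fit. Changes of sign between uncalled values count among the 1682. The 7 changes of sign with a call came with subtraction of each library's microglial marker mean. That step moved the median of all genes by -1.31 in the APP/PS1 minus WT difference of Ki67+ microglia at 6 months. Between 6 and 4 months in WT Ki67+ microglia, Ctnnd2 became 0.40, Ntm 0.46, Myo1e 1.23 and Pld3 0.95. In the Ki67 difference of 6 months, Myo1e became 1.26 and Pld3 0.79 in WT mice, and Pld3 0.51 over the genotypes. With it, selected genes called became 7 between 12 and 4 months and 6 between 6 and 4 months in WT Ki67+ microglia, 7 for the Ki67 difference of WT mice and 6 over the genotypes at 6 months. Non-overlapping selected genes in Ki67+ microglia at 6 months became 1, and DAM genes called 0 at 4 months and 4 at 6 months. A trended and robust variance gave 4 DAM genes in Ki67- microglia at 6 months. Without counting the removed directions as spent, these were 11, and 3 selected genes had a Ki67 difference in WT mice at 6 months. With only the ages compared in the fit, 4 had one in APP/PS1 mice at 12 months. With the 3 WT Ki67- libraries of 12 months counted as 1, 2 selected genes were called between 12 and 4 months. On leaving out single libraries, DAM genes called ranged from 0 to 2 (4 months, Ki67+), 1 to 3 (6 months, Ki67-) and 8 to 16 (6 months, Ki67+), and selected genes called from 0 to 2 (6 against 4 months, WT Ki67+), 1 to 2 (Ki67 difference at 6 months over the genotypes and in WT mice) and 0 to 1 (the same in APP/PS1 mice). The cause of the changes was not tested. No paired analysis was possible because the labels give no replicate numbers that groups share. The 2 to 3 libraries per group at 6 months limit every comparison of that age, and values without counts allow no limit from depth.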
